A study of Mus musculus with 2 samples.

Results

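Integrins are transmembrane receptors that tie the cell to its surrounding matrix, and each works as a pair of 1 α and 1 β chain. The genes of 10 α and β chains were followed here in dental tissue, and they were chosen by symbol from a fixed list: Itgb1 (ENSMUSG00000025809), Itgb5 (ENSMUSG00000022817), Itga1 (ENSMUSG00000042284), Itga2 (ENSMUSG00000015533), Itga5 (ENSMUSG00000000555), Itga6 (ENSMUSG00000027111), Itga8 (ENSMUSG00000026768), Itga9 (ENSMUSG00000039115), Itga10 (ENSMUSG00000090210) and Itga11 (ENSMUSG00000032243). All 10 were found among the 34285 genes listed in both libraries, which hold 27 integrin subunits in all. The list was drawn up as receptors for collagen and laminin, and that name covers only some of its members. Its members were chosen with earlier results of these data known, so their shares beside all genes are a description.

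The β1 chain encoded by Itgb1 is the common partner of many α chains. Paired with it, the products of Itga1, Itga2, Itga10 and Itga11 bind collagens, and the product of Itga6 binds laminins, also as a partner of the β4 chain. The products of Itga5 and Itga8 recognise RGD-type ligands, mainly fibronectin for the former and nephronectin for the latter, the product of Itga9 binds tenascin-type ligands, and β5 pairs with αv to bind vitronectin. Dentin, cementum, alveolar bone and the periodontal ligament are all built on collagen fibres, and the basement membranes of dental epithelium, vessels and nerves are rich in laminin and type IV collagen.

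The study asked what the loss of macrophages does to root formation of the mouse molar. Single cells were captured from mandibular first molars of C57BL/6J mice together with the tissue around them, after digestion with Dispase and Collagenase I. Lipo-Clo mice received liposomes loaded with clodronate, which kills phagocytes that take it up, at 40 μg per g body weight into the peritoneum at postnatal day PN3.5 and then again on PN6.5, on PN9.5 and lastly on PN12.5, whereas Lipo-PBS mice received vehicle liposomes. Both groups were of the same strain with no engineered allele named in the labels, both received liposomes, and both were collected on PN15.5. Each group is 1 library and the number of mice pooled in it is not stated, so treatment and library cannot be told apart, and no test between the groups was made. Intervals in brackets are exact 95% intervals that cover counting error only.

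The libraries held 9362 cells with 31053404 unique molecular identifiers (UMIs) for Lipo-Clo and 9653 cells with 30537834 UMIs for Lipo-PBS, and 30 cell barcodes occurred in both. After filters and removal of likely doublets, 16515 cells remained in 27 clusters, of which 2 stayed unnamed and the others were assigned to 10 named classes. Macrophages, the target of clodronate, made up 1.54% of cells in Lipo-Clo (interval 1.28 to 1.83) and 2.09% in Lipo-PBS (1.80 to 2.43). The libraries differed in other ways as well. Mitochondrial genes took 0.370% of UMIs in Lipo-Clo and 1.73% in Lipo-PBS, neutrophils numbered 525 and 224, and an unnamed cluster led by mitochondrial genes and genes of several lineages held 42 and 680 cells. Levels are given as UMIs of a gene per 1000000 UMIs of the class or state (CPM), with the Lipo-Clo value first in each pair, which allows classes to be compared within a gene but not genes with each other.

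The collagen-receptor chains were divided among cell classes (plot of levels by class). Itga1 was led by perivascular cells, the pericytes and smooth muscle of vessel walls, at 462 CPM in Lipo-Clo (interval 416 to 513) and 496 in Lipo-PBS (460 to 535). Glia followed at 163 and 210, and endothelium at 83.6 and 51.4. The ranges of these 3 classes over the libraries did not overlap, and mesenchyme was far below them at 7.92 and 19.6. T or NK cells, few in number, were at 12.3 and 52.3. In the annotation the gene Pelo lies inside Itga1 on the same strand, so reads from the shared stretch are uncertain. Perivascular cells held 54.1% of all Itga1 UMIs in Lipo-Clo and 48.0% in Lipo-PBS although they were 413 and 597 of the cells.

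**Figure D1:**
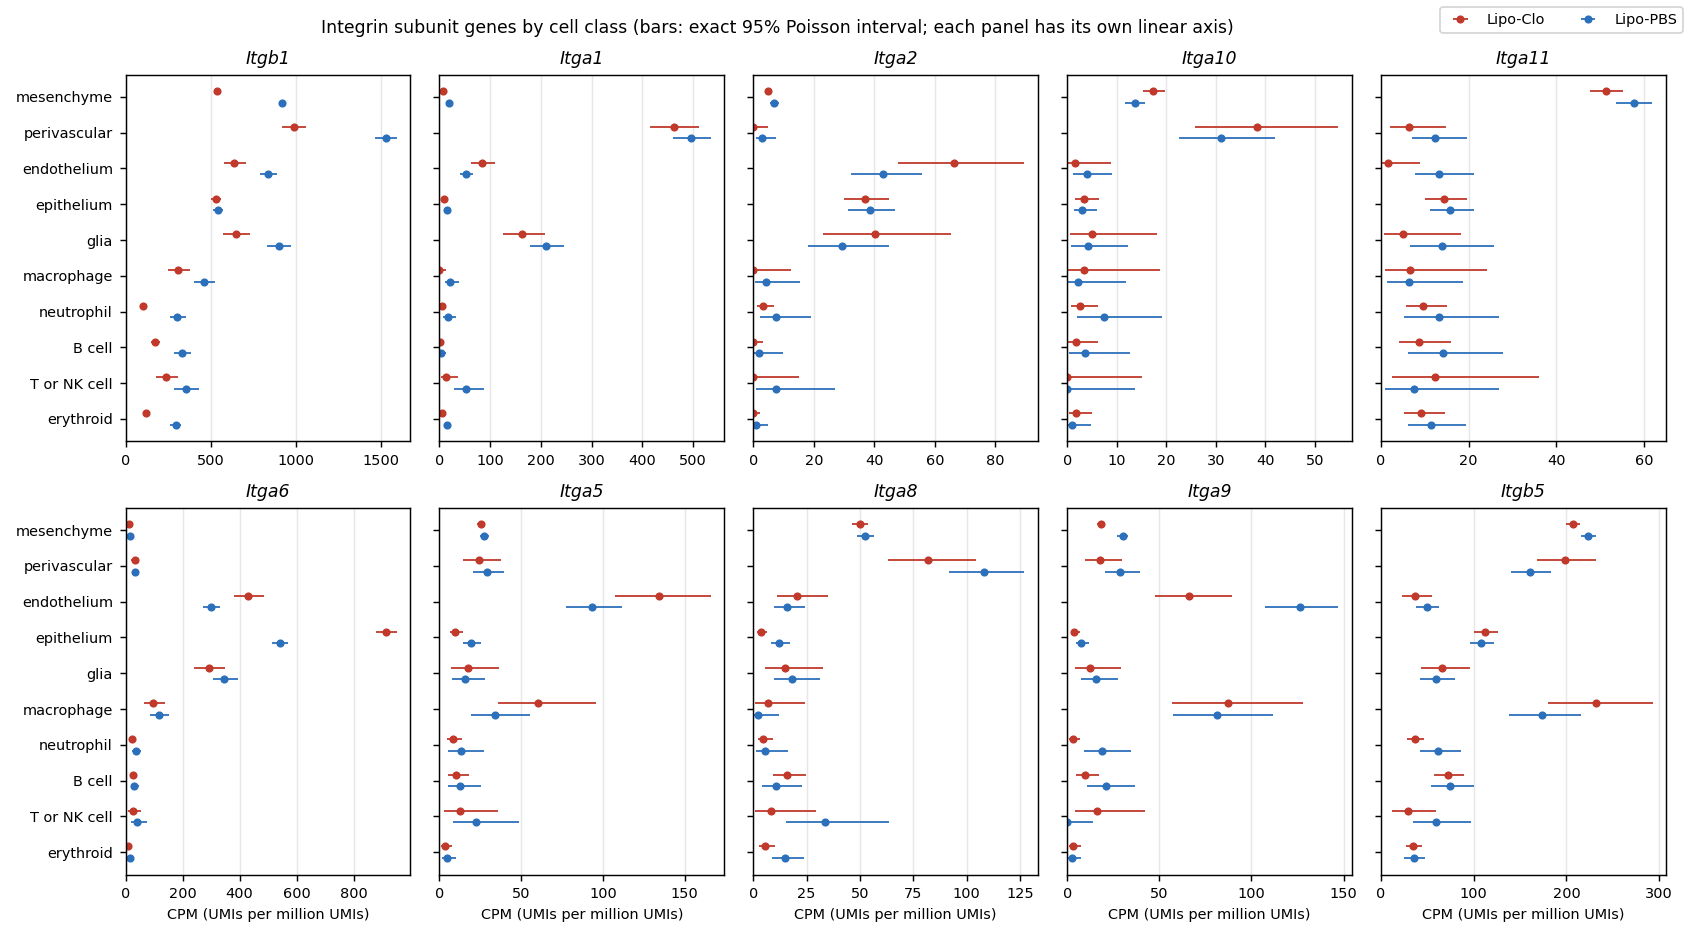
CPM (x axis, linear and separate for each gene) of the 10 integrin genes in each of the 10 named cell classes (y axis), with 1 point per library and exact 95% Poisson intervals as bars. Itga1 stands out in perivascular cells (462 and 496), Itga6 in epithelium (915 and 542), Itga5 in endothelium (134 and 93.5) and Itga11 in mesenchyme (51.3 and 57.7).

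Itga2, a collagen-receptor chain known from platelets and epithelia, was found in endothelium at 66.3 (Lipo-Clo) and 42.8 (Lipo-PBS) CPM, in epithelium at 36.9 and 38.6, and in glia at 40.2 and 29.4. Epithelium and glia overlapped over the libraries, and with coarser clusters (Leiden resolution 0.5) the endothelial level in Lipo-PBS was 23.5. The other 7 classes were at or under 7.49 CPM in either library. Within epithelium the ameloblast-type cluster led by Odam and Amtn stood at 50.6 and 65.2, and the keratinocyte-type cluster led by Lgals7 and Krt15 at 12.0 and 21.5.

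Itga11 and Itga10, the chains tied to fibrillar collagen in connective tissue and cartilage, were led by different classes. Itga11 was highest in mesenchyme, at 51.3 CPM in Lipo-Clo and 57.7 in Lipo-PBS, with all 9 other classes between 1.58 and 15.7. Mesenchyme held 86.9% and 79.7% of its UMIs. Itga10 was highest in perivascular cells, at 38.3 and 31.1, followed by mesenchyme at 17.4 and 13.6, and the 2 classes did not overlap over the libraries. Since mesenchyme was the larger class, it held 81.2% and 64.7% of Itga10 UMIs.

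The laminin-receptor chain Itga6 was led by epithelium, at 915 CPM in Lipo-Clo (interval 879 to 952) and 542 in Lipo-PBS (514 to 570). Endothelium stood at 431 and 301 and glia at 292 and 347, and these 2 classes overlapped. Macrophages followed at 97.3 and 116, clear of the rest, and mesenchyme was at 12.1 and 17.2. Within epithelium the ameloblast-type cluster reached 1246 and 960, the keratinocyte-type cluster 393 and 331, and a cluster led by Cxcl14 and Nppc 207 and 294. In cells thinned to 1000 UMIs, an Itga6 UMI was found in 56.2% (Lipo-Clo) and 36.8% (Lipo-PBS) of epithelial cells. The shares were 0.227% and 2.06% in erythroid cells, the class with the lowest mean Itga6 level.

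Among chains for fibronectin-type ligands, Itga5 was highest in endothelium at 134 (Lipo-Clo) and 93.5 (Lipo-PBS) CPM, then in macrophages at 60.4 and 34.2, with no overlap between them. With the coarser clusters the endothelial level in Lipo-PBS was 56.5. Itga8 was highest in perivascular cells at 81.7 and 108, then in mesenchyme at 49.9 and 52.4. Itga9 was shared by endothelium at 66.3 and 126 and macrophages at 87.3 and 81.3, which overlapped, and with the coarser clusters the endothelial level in Lipo-PBS was 64.5 and macrophages were the highest class. Within endothelium the lymphatic-type cluster led by Ccl21a and Mmrn1 held more Itga9 (124 and 150) than the blood vessel cluster led by Flt1 and Emcn (53.7 and 94.8).

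The β chains were broader. Among classes, Itgb1 was highest in perivascular cells at 987 and 1529 CPM, clear of the next class. Glia (646 and 898), endothelium (639 and 836) and mesenchyme (538 and 917) overlapped. Epithelium (529 and 540) overlapped mesenchyme but not glia or endothelium. Among single clusters the Dio2-led mesenchymal cluster, at 930 and 1513, overlapped the perivascular one. The lowest values were those of erythroid cells (120 and 293) and neutrophils (102 and 303). Itgb5 was highest in mesenchyme (207 and 223), macrophages (232 and 173) and perivascular cells (198 and 160), which overlapped in that order. Erythroid cells also held Col1a1, which they are not known to make, at 4335 and 5429 CPM, and the part of RNA from other cells in the low integrin levels was not tested.

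The 8299 mesenchymal cells (4268 from Lipo-Clo, 4031 from Lipo-PBS) were split into 11 states, of which 9 could be named from marker genes. The states differed in their α chains (plot of levels by state). The follicle-like state led by Dio2 and Mmp11 (577 and 438 cells) had the highest Itga8 level, at 197 CPM in Lipo-Clo (interval 179 to 216) and 239 in Lipo-PBS (215 to 265). The papilla- or pulp-like state led by Ctnnd2 came next at 62.7 and 121, and it overlapped the Edil3-led and Fst-led states. The odontoblast-like, osteoblast- or cementoblast-like, fibroblast-like and Tnn-led periodontal ligament-like states lay between 3.57 and 16.2. Npnt, which encodes nephronectin, was highest in the Tnn-led state, at 178 and 217, where Itga8 itself was at 14.8 and 8.04.

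**Figure D2:**
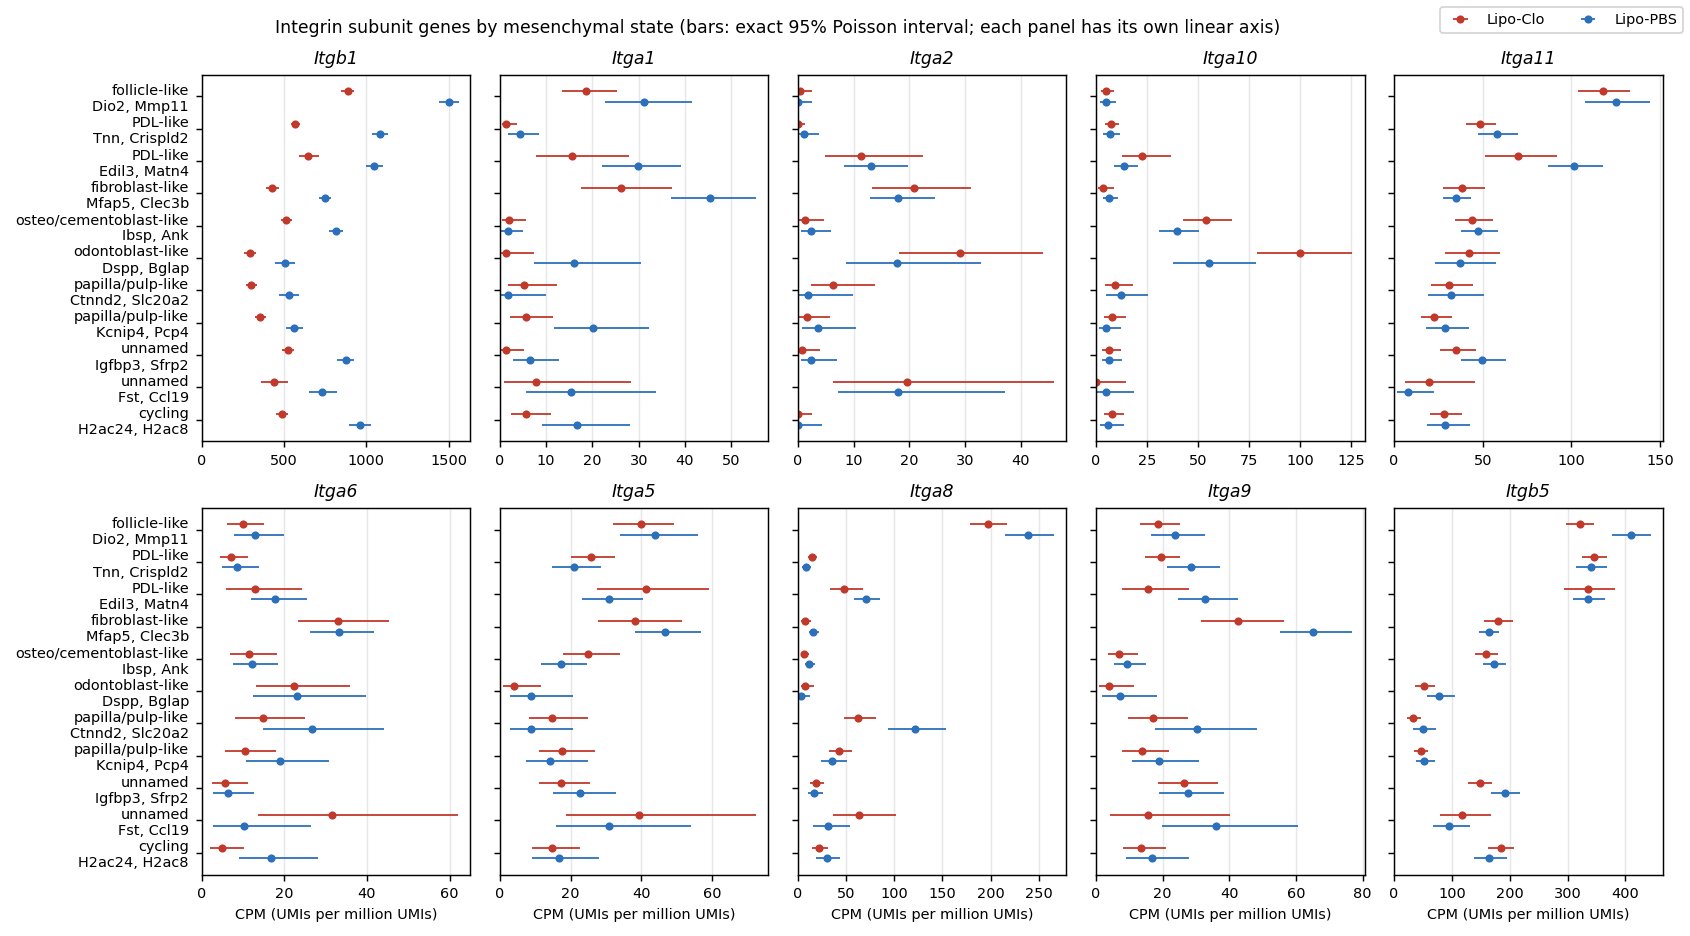
CPM (x axis, linear and separate for each gene) of the 10 integrin genes in each of the 11 mesenchymal states (y axis, with the 2 leading genes of each state), with 1 point per library and exact 95% Poisson intervals. Itga8 and Itga11 peak in the follicle-like state (197 and 239, 118 and 125), Itga10 in the odontoblast-like state (100.2 and 55.3), and Itgb1 is lower in Lipo-Clo in every state.

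Itga11 was also highest in the follicle-like state, at 118 CPM in Lipo-Clo and 125 in Lipo-PBS. The Edil3-led periodontal ligament-like state followed at 69.7 and 101, and the Tnn-led one at 48.6 and 57.9, and these 3 did not overlap. The other 8 states lay between 7.74 and 49.3. Of mesenchymal cells with an Itga11 UMI, 21.6% in Lipo-Clo and 21.2% in Lipo-PBS also held an Itga8 UMI. Itga8 was found in 11.5% of all mesenchymal cells of either library. The cells with both were 25.8% and 28.2% of the Itga8 cells. With cells thinned to 1000 UMIs the shares of Itga11 cells were 8.50% and 8.53%, on 17 and 18 cells. Among all thinned cells, 197 of 3880 in Lipo-Clo and 181 of 3758 in Lipo-PBS held an Itga8 UMI.

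Itga10 had another pattern. It was highest in the odontoblast-like state led by Dspp and Bglap (126 and 99 cells). The level there was 100.2 CPM in Lipo-Clo (interval 78.9 to 125) and 55.3 in Lipo-PBS (37.6 to 78.5). That state counted 6 odontoblast markers but also 4 osteoblast or cementoblast markers, and whether it mixes these cell types was not tested. The osteoblast- or cementoblast-like state led by Ibsp and Ank was at 53.8 and 39.8, and the Edil3-led state at 22.7 and 13.7. The remaining 8 states were below these 3 in both libraries, and in the follicle-like state Itga10 stood at 4.99 and 4.73. Of Itga11 cells, 6.01% and 5.82% also held an Itga10 UMI, beside 4.59% and 4.04% of all mesenchymal cells. These were 17.9% and 22.1% of the Itga10 cells, and Itga11 was found in 13.6% and 15.4% of all mesenchymal cells. With cells thinned to 1000 UMIs the shares of Itga11 cells were 2.50% and 0.948%, on 5 and 2 cells.

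The fibroblast-like state led by Mfap5 and Clec3b (466 and 839 cells) had the highest levels of 4 chains by the mean of both libraries. Itga9 there was at 42.6 (Lipo-Clo) and 65.3 (Lipo-PBS) CPM and Itga6 at 33.0 and 33.3, each clear of the next state. Itga1 at 26.1 and 45.5 and Itga5 at 38.3 and 46.8 overlapped with other states, such as the follicle-like one at 18.6 and 31.1 and at 39.9 and 43.9. Itga2 was found in the odontoblast-like state (29.0 and 17.8), the fibroblast-like state (20.9 and 18.0) and the unnamed state led by Fst and Ccl19 (19.7 and 18.1), which overlapped. The follicle-like and the cycling state held 1 and 0 Itga2 UMIs in both libraries together.

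Itgb5 was highest in 3 states, the follicle-like (321 and 409), Tnn-led (346 and 340) and Edil3-led (336 and 336) states. It was lowest in the Ctnnd2-led (33.0 and 49.8), Kcnip4-led (45.9 and 52.2) and odontoblast-like (51.4 and 78.5) states. Itgb1 was highest in the follicle-like state (885 and 1501), and the ranges of neighbouring states overlapped, since the 2 libraries were far apart within each state. Within each library the follicle-like state was first and the odontoblast-like state last.

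The mesenchyme of Lipo-Clo was then compared with that of Lipo-PBS (plot of ratios in mesenchyme). Itgb1 stood at 538 CPM in Lipo-Clo (interval 526 to 550, 7751 UMIs) and 917 in Lipo-PBS (901 to 934, 12297 UMIs). The log2 ratio of Lipo-Clo over Lipo-PBS was -0.77 (-0.81 to -0.73), so the level in Lipo-PBS was 1.70 times that in Lipo-Clo. A UMI of Itgb1 was found in 69.4% and 82.7% of mesenchymal cells.

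A gene was taken as in use where 10% or more of mesenchymal cells held a UMI of it in Lipo-Clo or in Lipo-PBS, which 4 of the 10 genes did (Itgb1, Itgb5, Itga8, Itga11). By a limit of 0.32 on the log2 scale in either direction, 1 of these 4 differed, beside 33.8% of all 4736 genes in use (867 lower, 733 higher). That gene was Itgb1, and the other 3 differed less. Itgb5 was at 207 and 223 CPM (log2 ratio -0.11, interval -0.18 to -0.04), Itga11 at 51.3 and 57.7 (-0.17, -0.32 to -0.02), and Itga8 at 49.9 and 52.4 (-0.07, -0.22 to 0.08).

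**Figure D3:**
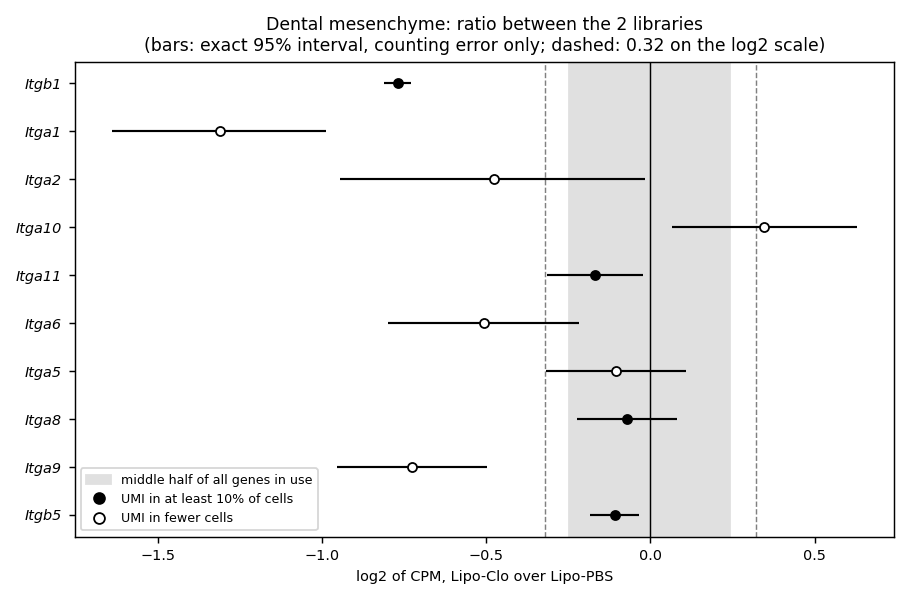
Log2 ratio of CPM in mesenchyme, Lipo-Clo over Lipo-PBS (x axis), for the 10 integrin genes (y axis), with exact 95% intervals for the ratio of 2 counts. Filled points had a UMI in at least 10% of cells of either library, dashed lines mark 0.32 on either side, and grey marks the interquartile range of all 4736 genes in use. Itga1 (-1.31), Itgb1 (-0.77) and Itga9 (-0.72) lie farthest below 0, and Itga10 (0.35) lies above it.

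The other 6 genes were under that share of cells and rest on 163 to 732 UMIs over both libraries. Itga1 was at 7.92 and 19.6 CPM, and its log2 ratio was -1.31 (-1.64 to -0.99). Itga9 was at 18.2 and 30.1 (-0.72, -0.95 to -0.50), Itga6 at 12.1 and 17.2 (-0.51, -0.80 to -0.22), and Itga2 at 4.93 and 6.86 (-0.48, -0.94 to -0.01). Itga5 was at 25.4 and 27.3 (-0.10, -0.32 to 0.11), and Itga10, at 17.4 and 13.6, was the single chain that was higher in Lipo-Clo (0.35, 0.07 to 0.63). Its ratio fell under the 0.32 limit in 5 of 14 alternatives, among them 0.15 in thinned cells and 0.03 as the mean over scaled cells. The ratio of Itga6 moved to -1.19 when the unnamed cluster of several lineages was counted as mesenchyme, and to -0.20 as the mean over scaled cells. Over all genes with at least 20 UMIs, 5 of the 10 were lower by 0.32 or more on the log2 scale, beside 21.8% of 15256 genes, and 1 was higher by as much, beside 17.7%. The whole interval lay below 0 for 7 of the 10, beside 22.4% of those genes, and above 0 for 1, beside 19.3%. The 15256 genes were not matched for depth, and an interval clears 0 more easily where a gene has many UMIs.

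The mixture of states differed between the libraries, with more fibroblast-like cells (839 against 466) and fewer Ctnnd2-led cells (268 against 507) in Lipo-PBS. Where each state was given an equal weight in the 2 libraries, the log2 ratio of Itgb1 was -0.79, that of Itga1 -0.98 and that of Itga9 -0.54, whereas Itga6 was at -0.29, Itga2 turned to 0.11 and Itga5 to 0.05. Itga8 moved from -0.07 to -0.29. By the limit 3 of the 10 genes were then lower and 1, Itga10, was higher. Over the 4736 genes in use, which hold only 4 of the 10, the shares were 17.8% lower and 13.2% higher. Markers of other classes also differed in the mesenchyme. The 6 endothelial markers were all lower in Lipo-Clo, with sums of 20.1 and 37.2 CPM, 6 of 8 perivascular markers were lower (520 and 587), 7 of 8 macrophage markers were lower (67.9 and 109), 5 of 7 glial markers were lower (23.1 and 34.5), and all 9 neutrophil markers were higher (611 and 180). Of 10 epithelial markers, from the class highest in Itga6, 6 were higher in Lipo-Clo and 4 lower (343 and 296). None of these markers was at 0 in either library, and their part in the ratios of Itga1, Itga2, Itga6 and Itga9 was not tested.

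Within states, the difference in Itgb1 was present throughout (plot of ratios by state and class). Its log2 ratio lay between -0.98 in the cycling state and -0.66 in the osteoblast- or cementoblast-like state, and the whole interval was below 0 in 11 of 11 states. That property is easier to reach for genes with many UMIs, and Itgb1 has 20048 in mesenchyme. Among genes with at least 20 UMIs in every state, a set not matched for depth, 0.492% (21 of 4266) had it. Of the 20 others, 12 were mitochondrial genes and 4 were haemoglobin genes, and the remaining 4 were Col5a2, Dcn, Setbp1 and Malat1. Mitochondrial genes summed to 3812 CPM in the mesenchyme of Lipo-Clo and 16353 in that of Lipo-PBS, and the 8 erythroid markers to 22226 and 52251, of which 7 were lower. Haemoglobin is not made by mesenchyme, and the part of free RNA and of mitochondrial content in the Itgb1 difference was not tested.

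**Figure D4:**
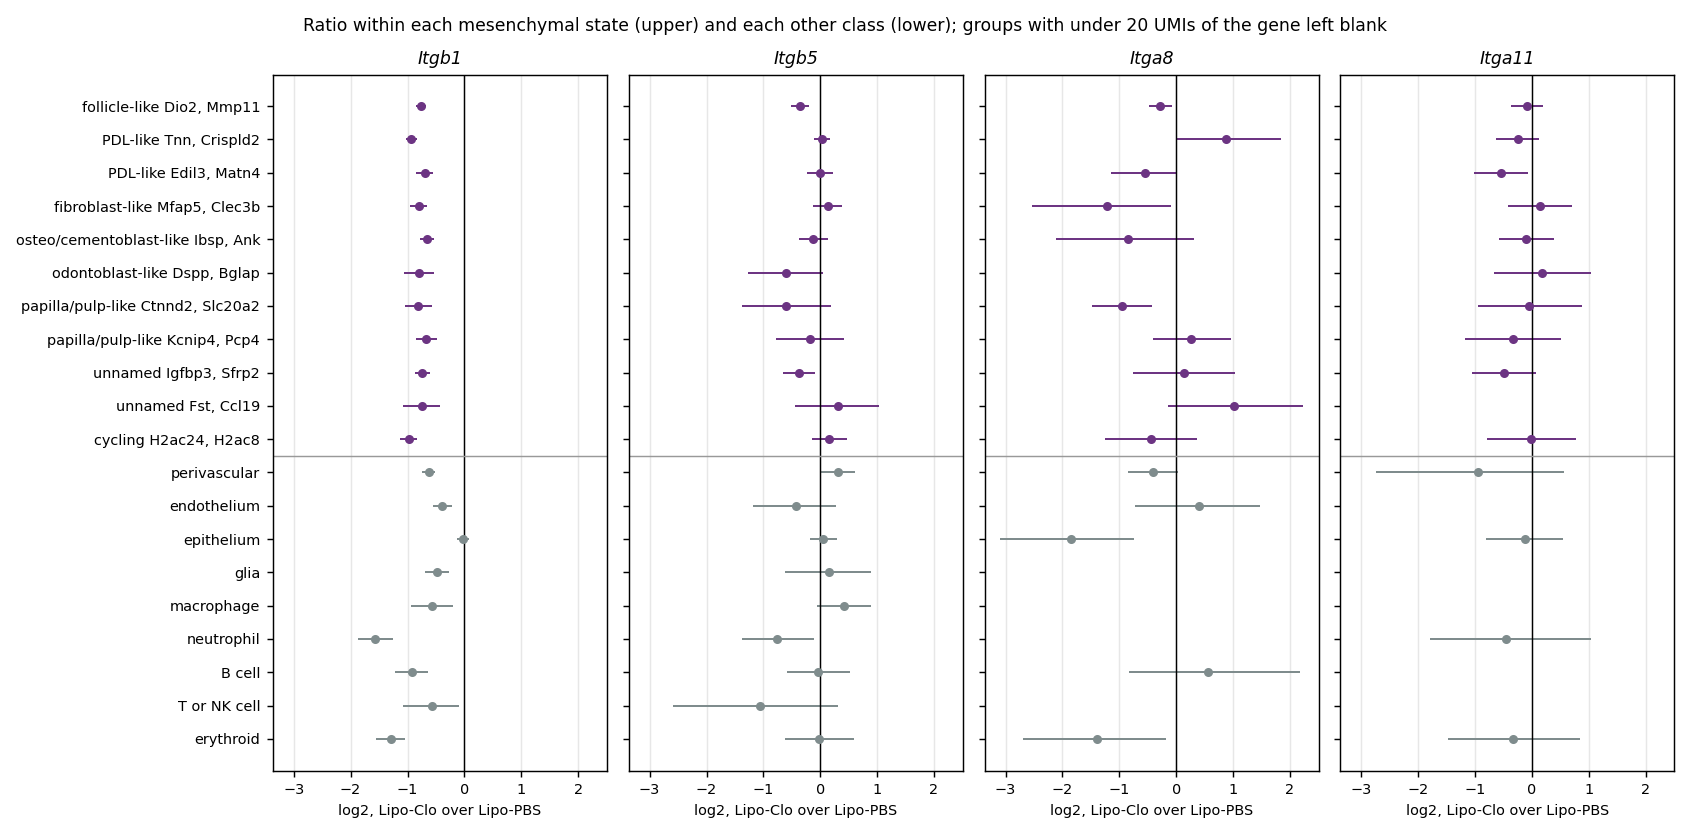
Log2 ratio of Lipo-Clo over Lipo-PBS (x axis) of Itgb1, Itgb5, Itga8 and Itga11 within each of the 11 mesenchymal states (purple, upper) and each of the 9 other classes (grey, lower), with exact 95% intervals. Itgb1 is below 0 in all 11 states, whereas the intervals of Itgb5, Itga8 and Itga11 cross 0 in most states drawn. They lie wholly below 0 in 2, 3 and 1 states and wholly above it in 0.

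Outside mesenchyme Itgb1 was lower in Lipo-Clo too. Its level was lower in 10 of 10 named classes, beside 4.93% of the 3084 genes with at least 20 UMIs in every class. Those genes were not matched for depth either. The whole Itgb1 interval was below 0 in 9 of the 10 classes. The log2 ratio was -0.63 (-0.75 to -0.51) in perivascular cells, -0.39 (-0.56 to -0.22) in endothelium and -0.48 (-0.69 to -0.27) in glia. It was -1.29 (-1.55 to -1.04) in erythroid cells and -1.57 (-1.88 to -1.26) in neutrophils, the classes with the lowest Itgb1 level. In epithelium it was -0.03 (-0.14 to 0.08) for the class, where the ameloblast-type cluster made up 606 of 846 Lipo-Clo cells and 336 of 789 Lipo-PBS cells. Within that cluster the ratio was -0.28 (-0.42 to -0.14), and within the keratinocyte-type cluster -0.37 (-0.59 to -0.15).

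The 10 genes gave 81 pairs of gene and state with at least 20 UMIs. The whole interval was on one side of 0 in 25 of them, beside 19.9% of 98060 pairs over all genes, not matched for depth. Of these pairs over all genes 9700 were lower and 9841 higher. Among the 10 genes 24 pairs were lower and 1 was higher, and without Itgb1 13 of 70 pairs were lower. The higher pair was Itga10 in the odontoblast-like state, with 76 UMIs in Lipo-Clo and 31 in Lipo-PBS and a log2 ratio of 0.86 (0.24 to 1.51). Itga10 was higher in 4 of the 4 states that could be compared, but elsewhere its intervals held 0, as in the Tnn-led state (0.05, -1.03 to 1.18). In clusters of all cells together, the 2 clusters highest in Itga10 had higher levels in Lipo-Clo (99.0 and 57.7, 58.1 and 44.4 CPM). These levels are given without intervals, so a difference beyond counting error is not claimed for them. The Thbs4-led cluster was at -0.78 (-1.59 to 0.04), on 31 and 25 UMIs. Itga1 was lower in 5 of 5 states, and its interval was below 0 in 4. Itga8 was lower in the follicle-like state (-0.28, -0.49 to -0.07), the Ctnnd2-led state (-0.95, -1.48 to -0.42) and the fibroblast-like state (-1.22, -2.54 to -0.09). In the clusters of all cells together, Itga8 was lower in the Ctnnd2-led cluster (-1.38, -2.04 to -0.74), whereas the intervals of the Dio2-led (-0.09, -0.30 to 0.12) and Clec3b-led (-0.33, -1.14 to 0.42) clusters held 0. Itgb5 was lower in the follicle-like state (-0.35, -0.51 to -0.19) and in the unnamed state led by Igfbp3 and Sfrp2 (-0.38, -0.65 to -0.10), and close to equal in the Tnn-led state (0.03, -0.12 to 0.17).

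Over the classes outside mesenchyme, the whole interval was on one side of 0 in 20 of 55 pairs, beside 21.9% of 69752 pairs over all genes (8695 lower, 6568 higher). It was below 0 in 15, of which 8 were Itgb1, leaving 7 of 46 pairs without it. It was above 0 in 5, all in endothelium or epithelium. Itga6 in epithelium stood at 915 and 542 CPM (log2 ratio 0.76, 0.66 to 0.85). Within the ameloblast-type cluster the ratio was 0.38 (0.26 to 0.49) and within the keratinocyte-type cluster 0.25 (0.04 to 0.45). In the Cxcl14-led epithelial cluster the Itga6 level was instead lower in Lipo-Clo, at 207 CPM against 294. In endothelium, where the lymphatic-type cluster was 31 of 404 Lipo-Clo cells and 147 of 527 Lipo-PBS cells, the class ratios of Itga1 (0.70), Itga2 (0.63), Itga5 (0.52) and Itga6 (0.52) became 0.19 (-0.41 to 0.79), -0.21 (-0.83 to 0.41), 0.28 (-0.21 to 0.77) and 0.06 (-0.19 to 0.31) within the blood vessel cluster. Itga9 was lower in endothelium as a class (-0.93, -1.46 to -0.43) and within the blood vessel cluster (-0.82, -1.53 to -0.13).

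Most mesenchymal cells with a UMI of an α chain also held one of Itgb1. For Itga11 the share was 83.3% in Lipo-Clo (interval 80.1 to 86.3) and 91.4% in Lipo-PBS (88.9 to 93.5), against 67.2% and 81.2% of cells without an Itga11 UMI. Those cells were also shallower, with medians of 2705 and 2852.5 UMIs against 3960 and 3728. In cells thinned to 1000 UMIs the shares were 49.5% and 60.2% with Itga11 and 40.1% and 55.0% without it, and the interval for Lipo-PBS cells with Itga11 (53.2 to 66.8) held the value without it. For Itga8 the thinned shares were 51.3% and 62.4%, against 40.0% and 54.9%. Thinned Itga1 cells held Itgb1 in 54.8% and 67.6%, against 40.4% and 55.0%, and the Lipo-Clo interval (36.0 to 72.7) held the value without Itga1. For Itga10 the shares were 46.7% and 55.8%, against 40.4% and 55.3%, with both intervals holding the value without it. Itgb5 cells also held Itgb1 more often (45.6% and 61.1%, against 39.4% and 53.8%). The remaining α chains gave no common order in thinned cells. Itga5 cells held Itgb1 in 42.2% and 53.9%, against 40.5% and 55.3% without Itga5. Itga9 cells did so in 45.5% and 53.5%, against 40.4% and 55.3%. Itga6 and Itga2 cells were lower in Lipo-Clo (34.8% and 34.5%, against 40.6% for both) and higher in Lipo-PBS (63.1% and 65.4%, against 55.1% and 55.2%), and for these 4 genes the intervals held the values without the gene.

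The ligands and partners of these chains were then read in mesenchyme by the same limit (plot of lists), by which 18.3% of all genes in use were lower and 733 of 4736 were higher. These lists too were chosen with earlier results of these data known, so their shares are a description. Of 13 collagen genes, 11 were in use, 3 (27.3%) were lower by that limit and 0 higher. The median log2 ratio of the 11 was -0.20, beside -0.005 over all genes in use. The 3 were Col4a1 (98.3 and 192 CPM, -0.96), Col4a2 (71.5 and 116, -0.70), which form the type IV collagen of basement membranes, and Col5a2 (1662 and 2120, -0.35). Col1a1 was at 38368 and 34710 (0.14), Col1a2 at 14078 and 15279 (-0.12) and Col3a1 at 12404 and 13435 (-0.12).

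**Figure D5:**
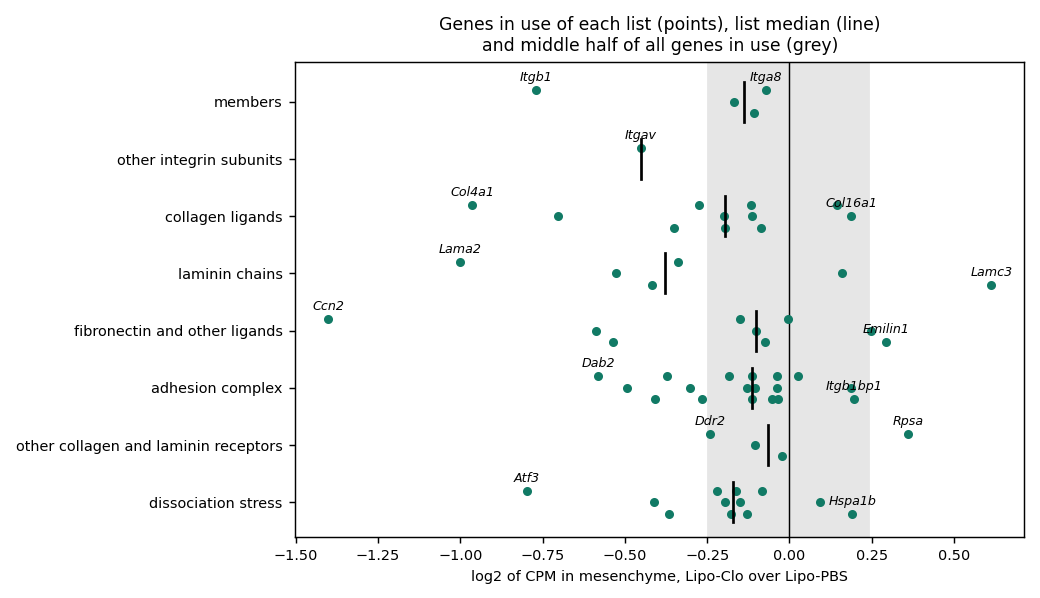
Log2 ratio in mesenchyme, Lipo-Clo over Lipo-PBS (x axis), of each gene in use (points) of 8 lists (y axis), with the list median as a line and the interquartile range of all genes in use in grey. The outermost genes of each list are named, among them Ccn2 (-1.40) and Col4a1 (-0.96) on the lower side and Lamc3 (0.61) on the higher side.

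Of 11 laminin chains, 6 were in use, 4 (66.7%) were lower and 1 was higher, with a median of -0.38. Lama2, the α2 chain of muscle and nerve laminin, was at 95.5 and 191 CPM (interval of the log2 ratio -1.10 to -0.90), Lama4 at 87.1 and 126 (-0.53), Lamb1 at 108 and 144 (-0.42) and Lamc1 at 89.6 and 113 (-0.34). Lamc3 was at 108 and 70.7 (0.61). Lama2 was highest in the unnamed Fst-led state (326 and 588), the fibroblast-like state (261 and 370) and the follicle-like state (213 and 351). Among classes, epithelium had the highest levels of Lama3 (296 and 220) and Lamb3 (287 and 145), chains of epithelial basement membrane laminin, and also of Itgb4 (119 and 129), the other partner of Itga6.

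Of 11 genes for fibronectin and other ligands, 9 were in use, 3 (33.3%) were lower and 0 higher, with a median of -0.10. The 3 were Ccn2, a matricellular growth factor (55.1 and 146, -1.40), Fn1, which encodes fibronectin (445 and 669, -0.59), and Postn, which encodes periostin (1965 and 2847, -0.54). In the state where each was highest the order differed, with Ccn2 at 175 and 414 in the Edil3-led state, Fn1 at 1873 and 1855 in the fibroblast-like state, and Postn at 5629 and 4759 in the follicle-like state. Tnc, which encodes tenascin C, was at 349 and 294 (0.25). It was highest in the Ctnnd2-led state, at 2128 and 2530, where Itga9 was at 17.0 and 30.3.

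Of 28 genes of the adhesion complex inside the cell, 18 were in use, 4 (22.2%) were lower, a share near that of all genes in use, and 0 higher, with a median of -0.12. The 4 were Dab2 (-0.58) and Ptk2, the focal adhesion kinase (-0.37), with the actin-linking genes Vcl (-0.49) and Tns1 (-0.41). Tln1 (-0.12), Ilk (-0.04) and Fermt2 (-0.10), which join integrin tails to actin, did not pass the limit. Of the 17 other integrin subunits, only Itgav, the partner of β5, was in use, at 68.3 and 93.3 (-0.45). Of 8 other receptors for collagen and laminin, 4 were in use, with the collagen receptor Ddr2 at -0.24. Rpsa, at 3465 and 2698 CPM (0.36), is also a ribosomal protein gene, so its ratio cannot be read as that of a receptor alone. Of 12 immediate-early and heat-shock genes, which respond to tissue dissociation, all 12 were in use, with a median of -0.17. By the limit 3 of the 12 were lower (Atf3 at -0.80, Jun at -0.41 and Fos at -0.36), beside 18.3% of all genes in use, and 0 were higher. The part of these 12 genes in the ratios above was not tested.

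Over the 40 points formed by 20 groups of cells in 2 libraries, the genes whose log2 levels followed each chain most closely were named as a description, since the points share libraries, depth and free RNA. Itga1 was followed by Col4a1 (Pearson r = 0.88) and Col4a2 (0.87), which encode its basement membrane ligand, and by Mcam (0.82), a marker of vessel walls. Itga11 was followed by Lum (0.89), Scarf2 (0.85) and Col11a1 (0.82), and Itga10 by Kcnma1 (0.86), Chn1 (0.77) and Dmp1 (0.77), a gene of mineralising cells. Itga6 was followed by Fxyd3 (0.82) and Itgb4 (0.81). Itga9 was followed by Rgl1 (0.82), Dab2 (0.81) and Apaf1 (0.76), and Itga5 by Tnfrsf1a (0.82), Layn (0.81) and Eng (0.80). For Itga8 the genes were Mark1 (0.79), Plekhh2 (0.75) and Ntrk3 (0.75). Itga2 was followed by S100a16 (0.82), Vwa1 (0.73) and Sema3d (0.72). For the β chains the genes were Slc12a2 (0.86), Cald1 (0.85) and Armcx3 (0.84) with Itgb1, and Scpep1 (0.81), Golph3 (0.81) and Thbs2 (0.81) with Itgb5.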

How the data were processed

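The authors deposited 1 matrix of UMI counts per gene and cell for each library, not normalized, with no cell type labels. The matrix header names Cell Ranger 8.0.0, whereas the submitters' processing notes name Cell Ranger 3.1.0, Seurat 3.1.1 and mm39, so the version used is unsure, and no coordinates are given. A cell was kept if it had 200 or more genes and no more than 20% of its UMIs from mitochondria. Scrublet's automatic threshold called 0 and 1 cells, so the highest scores at 0.8% per 1000 cells were left out instead (632 and 633 cells). Both libraries were clustered together in scanpy 1.11.5 (2000 variable genes without integrins, 30 components, Leiden resolution 1), and mesenchyme again at resolution 0.6. Clusters were named from marker lists. UMIs were summed per library and class and divided by the class total. Poisson, Clopper-Pearson and conditional binomial intervals were exact at 95%, and the ratio was tested on simulated data. Ratios were read in groups with at least 20 UMIs of the gene. The text names the 10 genes, the listed ligand and adhesion genes, markers, leading genes and the 3 genes most correlated with each member (genes with at least 200 UMIs, groups with at least 20 cells), of which 1 is not reported here. Members and lists were chosen with earlier results of these data known. Alternatives used edgeR 4.0.16 and DESeq2 1.42.0 for scaling factors only.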

Additional observations from a re-analysis of the deposited data

Results flagged for a closer look

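In 4 genes the ratio of Lipo-Clo over Lipo-PBS lay above 0 in one class and below 0 in another, beyond counting error, and none of these differences between classes was tested. Itga1 had a log2 ratio of 0.70 in endothelium, against -1.31 in mesenchyme, -1.46 in erythroid cells (9 and 16 UMIs) and -1.53 in neutrophils (11 and 9 UMIs). Itga2 had 0.63 in endothelium (0.01 to 1.24, 42 and 55 UMIs) and -0.48 in mesenchyme (-0.94 to -0.01, 71 and 92 UMIs). Both intervals came close to 0, and the mesenchymal ratio of Itga2 was 0.11 with the same mixture of states. Itga5 had 0.52 in endothelium and -0.99 in epithelium (26 and 51 UMIs). Itga6 had 0.52 in endothelium and 0.76 in epithelium, against -0.51 in mesenchyme. In the blood vessel cluster alone the intervals of all 4 genes held 0. Itga6 stayed above 0 within the ameloblast-type (0.38) and keratinocyte-type (0.25) clusters of epithelium. In the Cxcl14-led epithelial cluster its level was lower in Lipo-Clo, at 207 CPM against 294.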

How the results depend on the processing

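The log2 ratios in mesenchyme were recomputed under 14 alternatives of scaling, filters, clustering, thinning and mixture, 1 of which, counting the unnamed cluster of several lineages as mesenchyme, was added after the data were seen. Itgb1 stayed between -0.80 and -0.68, Itga1 between -1.65 and -0.98, Itga9 between -0.76 and -0.54, Itga6 between -1.19 (unnamed cluster counted as mesenchyme) and -0.20 (mean over scaled cells), and Itga10 between 0.03 (mean over scaled cells) and 0.41 (same mixture). Itga2 reversed to 0.11 with the same mixture of states, and the cause was not tested. Of the 4 genes in use, 1 was lower by 0.32 or more on the log2 scale, beside 18.3% of all genes in use. At a limit of 1.5-fold Itgb1 still passed (1.70-fold), beside 5.32% of all genes in use. At 2-fold 0 of the 4 were lower, beside 1.01%, a share too small for 4 genes to be set against. Over all genes with at least 20 UMIs, 5 of the 10 were lower, beside 21.8%, and 1 was higher, beside 17.7%. The highest class was the same for 9 of 10 genes at Leiden resolution 0.5, where Itga9 was highest in macrophages and the endothelial levels in Lipo-PBS fell to 23.5 CPM for Itga2, 56.5 for Itga5 and 64.5 for Itga9, and for 10 of 10 at resolution 2. No paired analysis was possible because neither treatment has more than 1 library. Depth limits Itga2, Itga10 and Itga1 most within states, where 3, 4 and 5 of 11 states gave a ratio, and classes with few UMIs give no ratio.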
